A study of Mus musculus with 8 samples.

Results

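The array used in this study carried 16251 probes for long intergenic noncoding RNAs (lincRNAs), which are 29.2% of its 55681 probes apart from control spots. They were taken by the start of their probe name in the array design, A_30_P, with no use of any measured value. Each is 60 bases long and was spotted 1 time, and together they cover 4622 strand-specific loci in 3555 genomic intervals (mouse build mm9). Of these intervals, 1067 have probes for both strands and 2488 for 1 strand. A locus holds up to 10 probes, with a median of 3. There were 8199 probes on the forward and 8052 on the reverse strand, and 118 carry no position of their own. They lie on 20 chromosomes, from 328 probes on chromosome 19 to 1199 on chromosome 1. Apart from 57 probes with 12 transcript names such as H19 and TUG1, the design gives the members an interval and a strand in place of a gene name. The comparison group was the 32469 probes of 24336 named genes.

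The arrays were hybridised with amplified cDNA of single cells labelled as myocardium, taken from the heart tube at embryonic day 8.5 (9 somites) of the mouse. All cells carried the floxed Sox17 genotype Sox17flox/flox. The 4 wild-type cells (WT) were Mesp1+/+ and the 4 knockout cells (KO) were Mesp1Cre/+, in which Cre recombinase acts in early mesoderm and its descendants. No label names the embryo of a cell, so each genotype is treated as 1 sample of cells, no test is given, and standard deviations (SD) describe the spread between cells only. Each genotype had a slide of its own, and effects of the slide and of the genotype cannot be told apart. By its markers each cell was myocardial: 9 to 10 of 10 myocardial genes were detected per cell, against 1 to 3 of 9 endothelial and endocardial genes, 0 of 6 erythroid genes and 0 to 1 of 6 endoderm genes. Both Sox17 probes were detected in 0 of 8 cells, WT included, so they do not check the genotype.

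LincRNAs are RNA polymerase II transcripts that lie between protein-coding genes and carry no long open reading frame. Many are spliced and polyadenylated, and they tend to be less abundant and more restricted to particular cell types than messenger RNAs. Some have well-studied roles, among them the silencing of the X chromosome by Xist, the assembly of paraspeckles by Neat1 and the silencing of neighbouring imprinted genes by Kcnq1ot1. In the heart, lincRNAs next to genes of cardiac transcription factors have been studied as regulators of those genes. The cDNA here was primed from the poly(A) tail, so a transcript without such a tail would be poorly represented.

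Because the members have no gene name, the sequences that best carry the results are shown first. The opening set consists of 3 pairs of probes that read opposite strands and overlap, each with the CCTCCC hexamer in the probe that was detected in all 8 cells, and a partner that was detected in 0 cells. Sequences run 5′ to 3′ as the files give them, and capitals mark CCTCCC or its reverse complement GGGAGG. In the first pair the hexamer lies outside the 25 shared bases, and in the other 2 pairs within the shared bases.
A_30_P01027850, chr17:86565480-86565539, reverse strand: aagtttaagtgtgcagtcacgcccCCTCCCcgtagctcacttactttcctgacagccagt
A_30_P01030300, chr17:86565445-86565504, forward strand: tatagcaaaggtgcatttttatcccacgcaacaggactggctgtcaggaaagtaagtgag
A_30_P01027511, chr14:33936830-33936889, reverse strand: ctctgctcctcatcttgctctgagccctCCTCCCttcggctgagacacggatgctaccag
A_30_P01031286, chr14:33936842-33936901, forward strand: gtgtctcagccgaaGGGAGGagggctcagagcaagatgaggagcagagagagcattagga
A_30_P01029805, chr1:182687077-182687136, reverse strand: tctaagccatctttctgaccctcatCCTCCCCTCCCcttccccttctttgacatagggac
A_30_P01021627, chr1:182687078-182687137, forward strand: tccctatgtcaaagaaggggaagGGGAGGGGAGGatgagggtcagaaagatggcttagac
The scaled signal of A_30_P01027850 ran from 5391.6 to 27983.2 over the 8 cells, and that of its opposite-strand partner A_30_P01030300 from 1.32 to 3.34. For A_30_P01027511 the range was 3287.6 to 14642.2, against 1.14 to 7.32 for A_30_P01031286. For A_30_P01029805 it was 2206.7 to 7244.0, against 2.29 to 9.32 for A_30_P01021627. These pairs were picked as the brightest of their kind and are examples, and the counts over all such pairs follow further down.

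A second set shows lincRNA probes that share most of their bases with the probe of a named gene, with the shared stretch in capitals. A_30_P01020015 matches the probe of Rn45s, the precursor of ribosomal RNA, in the same orientation, and the design places that probe 409 bases away on the same strand. A_30_P01025982 matches that of Rps18, a protein of the small ribosomal subunit, in the opposite orientation.
A_30_P01020015, chr17:39983218-39983277, forward strand: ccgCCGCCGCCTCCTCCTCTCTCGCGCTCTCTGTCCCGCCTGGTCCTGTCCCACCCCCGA
A_30_P01025982, chr13:98530485-98530544, forward strand: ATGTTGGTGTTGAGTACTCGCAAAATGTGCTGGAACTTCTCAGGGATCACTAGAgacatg
A last set holds the probes on which the results for named transcripts and for KO against WT turn. They are H19, TUG1 and NEAT1, then the 3 loci with several probes that differed most between genotypes and the brightest probe detected in KO cells only. No part of these is set in capitals.
A_30_P01021588, H19, chr7:149761693-149761752, reverse strand: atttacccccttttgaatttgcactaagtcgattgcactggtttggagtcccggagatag
A_30_P01033104, TUG1, chr11:3540263-3540322, reverse strand: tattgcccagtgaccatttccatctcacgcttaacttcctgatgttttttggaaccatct
A_30_P01025798, NEAT1, chr19:5842726-5842785, reverse strand: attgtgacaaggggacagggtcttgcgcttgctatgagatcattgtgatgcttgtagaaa
A_30_P01029279, chr5:35976818-35976877, reverse strand: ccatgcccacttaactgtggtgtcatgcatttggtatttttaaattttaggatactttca
A_30_P01023804, chr14:44292783-44292842, forward strand: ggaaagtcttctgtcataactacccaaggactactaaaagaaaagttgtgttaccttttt
A_30_P01028956, chr1:193817082-193817141, forward strand: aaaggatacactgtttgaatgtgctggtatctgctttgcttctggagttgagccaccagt
A_30_P01025884, chr8:26870435-26870494, forward strand: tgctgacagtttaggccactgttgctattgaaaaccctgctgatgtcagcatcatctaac

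Detection was asked of each probe in each cell. A probe counted as detected where the scanner software marked its spot as well above background. Among lincRNA probes the share detected was 16.5% in WT cell 1, 15.5% in WT cell 2, 19.4% in WT cell 3 and 16.8% in WT cell 4. In KO cell 1, 3410 of 16246 measured probes were detected, the highest of the 8 cells, and the share was 13.7% in KO cell 2, 13.7% in KO cell 3 and 15.1% in KO cell 4. The exact 95% Clopper-Pearson intervals of these shares ran from 13.1% to 14.2% for KO cell 2 and from 20.4% to 21.6% for KO cell 1. They cover counting error only, and probes of a locus are not independent. The KO cells held both the highest and the lowest share, and the difference between the genotype means, -1.17 percentage points in KO, was smaller than the SD of 1.66 between the WT and of 3.48 between the KO cells (n = 4 each).

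The lincRNA share lay below the share of named-gene probes in 8 of 8 cells. The named-gene share ran from 19.3% to 27.8% among the WT cells, and among the KO cells from 16.9% to 24.3%. The gap between both kinds averaged -5.47 percentage points ± 2.68 (SD, n = 8) and ran from -2.81 in WT cell 1 to -9.60 in WT cell 4. It was -7.01 ± 2.97 in WT (n = 4) and -3.92 ± 1.23 in KO (n = 4), and the values of both groups overlapped. KO cells 2 and 3 had the lowest shares of both kinds. The negative-control spots, 308 on each array, were marked as detected at 0% to 1.30%.

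**Figure D1:**
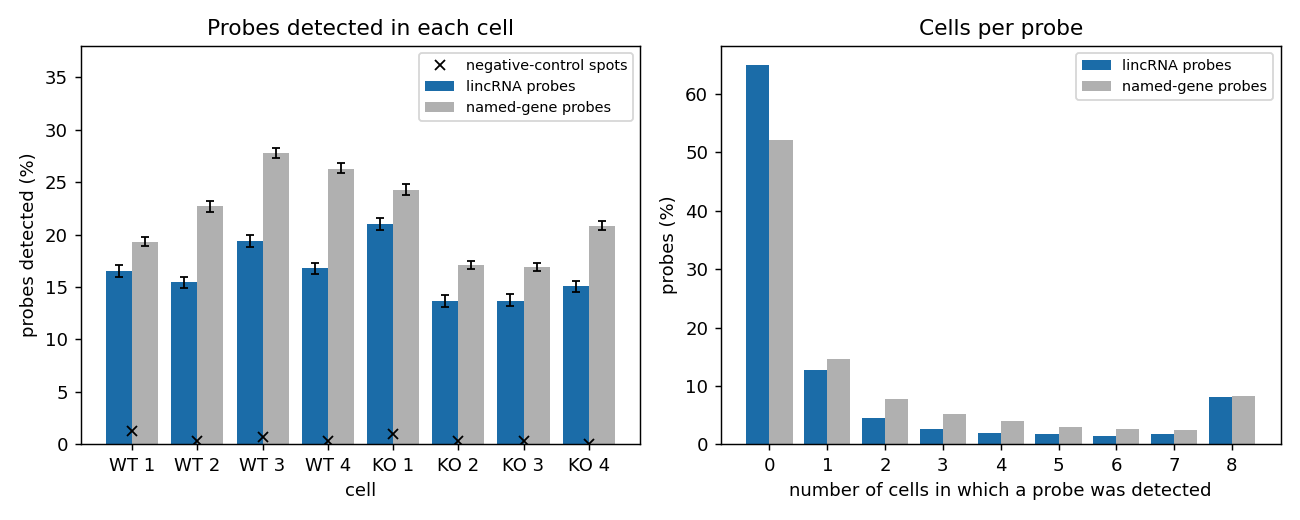
Left, percent of lincRNA probes (blue) and named-gene probes (grey) detected in each of 4 WT and 4 KO cells, with exact 95% binomial intervals, and percent of the 308 negative-control spots (crosses). Right, percent of lincRNA and named-gene probes by the number of cells in which they were detected, with 65.0% of lincRNA probes at 0 cells and 8.07% at 8 cells.

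Signals of detected lincRNA probes were mostly low. Of the detected lincRNA probes, 37.8% to 59.3% exceeded a scaled signal of 50, the value below which the study set all signals to 50, against 56.6% to 74.1% of detected named-gene probes. On the log2 scale, the median scaled signal of detected probes was 4.63 to 6.19 for lincRNA and 6.51 to 8.50 for named-gene probes. The difference of the medians averaged -2.42 ± 0.62 (SD, n = 8). Probes bind with different strength, so this compares distributions of signals and not amounts of RNA. Of all lincRNA probes, the share above 50 was nearly the same in every cell, 7.35% to 8.11%, while that of named-gene probes ran from 11.8% to 19.4%.

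Counted over cells, lincRNA detection was concentrated at both ends. In all, 10570 lincRNA probes (65.0%) were detected in 0 cells, against 52.1% of named-gene probes. A further 4369 (26.9%) were detected in 1 to 7 cells, against 39.7% of named-gene probes. Detection in all 8 cells was about equally common in both kinds, at 1312 lincRNA probes (8.07%) and 2660 named-gene probes (8.19%). The kinds were not matched for base content, which is compared below. Of the 5681 lincRNA probes detected in any cell, 23.1% were detected in all 8 and 36.7% in exactly 1, against 17.1% and 30.6% of the 15545 named-gene probes detected in any cell. Among probes detected in all 8 cells, the median SD of the log2 signal over the cells was 0.76 for lincRNA and 0.99 for named-gene probes. The kinds were not matched for signal level: 65.9% of these lincRNA probes had a mean above 50, against 80.8% of these named-gene probes. The part of signal level in the SDs was not tested. The 2085 lincRNA probes detected in exactly 1 cell were spread unevenly, with 571 (27.4%) in KO cell 1 and 101 in KO cell 3. Their median signal was 10.6 in KO cell 1, and 79 of its 571 exceeded 50.

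Base content was then compared with detection, as a property that the choice of members did not use. The share of lincRNA probes detected in all 8 cells rose with the number of C among the 60 bases. It was 1.60% for the 1816 probes with at most 8 C, 3.80% at 12 to 14, 20.4% at 18 to 20, 48.4% at 21 to 25 and 78.4% for the 97 probes with 26 or more. No such rise was seen with G: the share was 11.5% at up to 8 G, 6.97% at 12 to 14 and 6.92% at 21 to 25, and 20.7% for the 92 probes with 26 or more. With A the share fell, from 39.4% at up to 8 A to 10.9% at 12 to 14 and 2.10% at 21 to 25. With T it was 11.4%, 7.41% and 7.70% in the same classes. The bases of a probe add up to 60, so the trends with C and A are not separate observations. The 2261 lincRNA probes with 18 or more C are 13.9% of the members and hold 679 (51.8%) of the 1312 probes detected in all 8 cells. Named-gene probes showed a like rise from 9 C upward, to 44.1% at 21 to 25 C, so this dependence was not particular to the lincRNA probes. With G their share was 7.04% at 12 to 14, 13.4% at 21 to 25 and 42.9% for the 21 probes with 26 or more. With few C the kinds differed: at up to 8 C, 1.60% of lincRNA and 5.36% of named-gene probes were detected in all 8 cells, and at 9 to 11 C 1.82% and 3.86%.

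**Figure D2:**
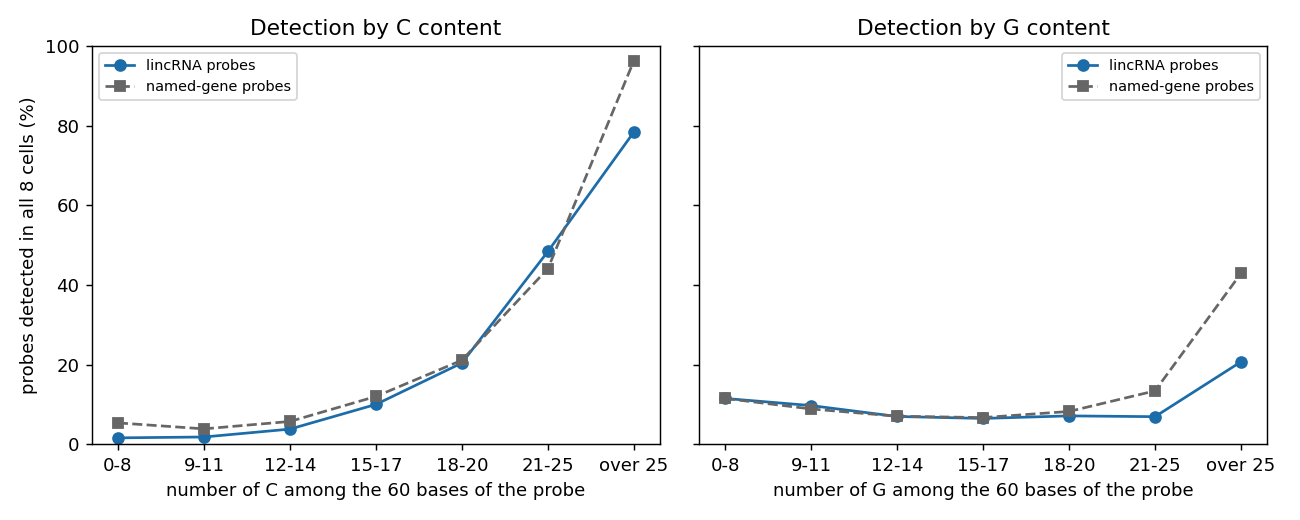
Percent of probes detected in all 8 cells by the number of C (left) or G (right) among the 60 bases, for lincRNA probes (circles) and named-gene probes (squares). For lincRNA probes the share rises with C, from 1.60% to 78.4%, and shows no comparable rise with G. For the 21 named-gene probes with 26 or more G it is 42.9%.

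The hexamer CCTCCC, searched as these letters in the probe as printed and separately as its reverse complement GGGAGG, showed the same asymmetry. It occurs in 314 lincRNA probes (1.93%) and 411 named-gene probes (1.27%). Of the 314, 189 were detected in all 8 cells (60.2%, exact 95% interval 54.5% to 65.6%), against 7.05% of lincRNA probes lacking it. Of the 318 with GGGAGG, 28 were (8.81%, interval 5.93% to 12.5%), against 8.06% without it. In named-gene probes the shares were 57.4% with CCTCCC and 8.71% with GGGAGG. Within each cell, 65.3% to 76.1% of the lincRNA probes with CCTCCC were detected, against 12.6% to 19.9% of those lacking it. Among lincRNA probes detected in all 8 cells, those with CCTCCC had a median SD over the cells of 0.65 on the log2 scale. The letters CCCC occur in 1933 lincRNA probes, of which 27.1% were detected in all 8 cells, against 5.51% of those lacking them. For GGGG the shares were 8.15% and 8.06%. Because CCTCCC and CCCC are themselves rich in C, these motifs and the base content are not separate observations. The letters AATAAA, which in a transcript can mark the polyadenylation signal, occur in 637 lincRNA probes, of which 7.22% were detected in all 8 cells, against 8.11% of the others. In named-gene probes the shares were 13.7% with AATAAA and 7.33% without it. AATAAA is itself rich in A, so it is not separate from the base content.

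Overlapping probes of opposite strands compare both orientations at nearly fixed positions. There were 1936 such pairs with at least 25 bases of overlap, made of 3594 lincRNA probes. In 91 pairs exactly 1 probe held CCTCCC: in 52 only that probe was detected in all 8 cells, in 1 only its partner, in 6 both and in 32 neither. The partner was detected in 0 cells in 68 of the 91 pairs. In 62 of the 91 the hexamer lies within the bases that both probes cover: here only the probe with CCTCCC was detected in all 8 cells in 38, only its partner in 1, both in 3 and neither in 20. In the 768 pairs that differed by 6 or more C, the C-richer probe was detected in all 8 cells in 24.2% and the C-poorer in 3.39%. The sequences of the opening set are such pairs. The part of probe composition in the detection of the loci named below was not tested, and the number of C is therefore given with several of them.

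Several probes of a locus allow a check within the locus. Where a lincRNA probe was detected in a cell, another probe of its locus that did not overlap it was detected in the same cell more often than where it was not detected, when the share was 13.9% ± 2.50 (SD, n = 8 cells; 29032 pairs). The difference averaged 16.1 percentage points and lay between 12.1 and 19.9 in the 8 cells. With both probes holding at most 14 C, the values were 30.1% ± 5.14 and 6.57% ± 1.66. Probes on the opposite strand of the interval gave 22.4% ± 2.24 against 15.3% ± 2.56, a smaller gap. Complete loci were rare: among 3397 loci with 3 or more probes, 25 had every probe detected in all 8 cells, 786 had some but not every probe, and 968 had no probe detected in any cell. In 623 of the 811 loci with any probe detected in all 8 cells it was exactly 1 probe. Detection did not rise toward the 3′ end of the interval, where poly(A)-primed cDNA is richest for a transcript that ends there: 6.13% of the probes within 500 bases of that end were detected in all 8 cells, against 9.86% of those more than 10000 bases from it. A transcript need not end at the end of its interval.

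The loci with the most probes detected in at least 4 cells were chr17:24152225-24169870 on the reverse strand (9 of 9 probes), chr14:77006215-77063293 on the reverse strand (8 of 10) and chr2:151992806-152025456 on the forward strand (7 of 8). The 9 probes of the chromosome 17 locus hold 11 to 16 C, and the nearest named-gene probe of the array, that of Prss27, lies 13.9 kb or more away. Its probe A_30_P01032541 had scaled signals of 2185.4, 795.8, 2222.8 and 601.6 in WT and 102.9, 2347.0, 1048.2 and 732.0 in KO. KO cell 2 gave the highest signal of the 8 cells for each of the 9 probes. At the chromosome 14 locus, the probe A_30_P01023813 shares 56 bases, with 1 mismatch, with the probe of Fkbp1a, which encodes an FK506-binding protein. Its signals ran from 1069.1 in KO cell 2 to 22198.6 in KO cell 1, and those of the Fkbp1a probe were lowest and highest in the same cells, at 2312.6 and 47160.4. At the chromosome 2 locus, A_30_P01025541 shares 36 bases with the probe of Rps15a in the opposite orientation, with 2 mismatches, and A_30_P01026637 varied little, from 5281.0 in WT cell 4 to 7256.0 in KO cell 2.

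How far the intergenic label holds against the named genes of the same array was examined by position. Of the lincRNA probes with a position, 183 start less than 60 bases from a named-gene probe of the same strand and so overlap it. These were detected in a cell in 68.0% ± 5.31 (SD, n = 8) where the gene's probe was detected there, and in 4.79% ± 1.13 where it was not. At 60 to 1000 bases (832 probes) the values were 37.9% ± 4.73 and 12.5% ± 2.96, with a higher value beside a detected gene probe in 8 of 8 cells. At 1 to 5 kb (1300 probes) they were 12.9% ± 3.39 and 13.1% ± 2.50, and the difference changed sign between cells, from -3.14 to 3.14 percentage points. Over all distances up to 5 kb the values were 24.9% ± 2.97 and 12.2% ± 2.45. Beyond 100 kb they were 18.8% ± 2.82 and 15.4% ± 2.44, again higher beside a detected gene probe in 8 of 8 cells, by 0.976 percentage points or more. The difference was thus largest within 1 kb.

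**Figure D3:**
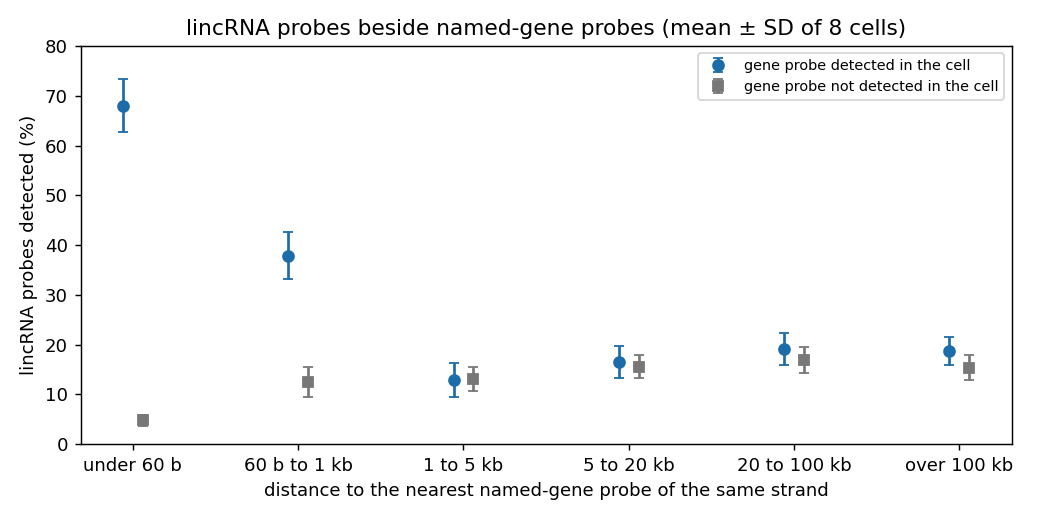
Percent of lincRNA probes detected in a cell (mean ± SD of 8 cells) by distance to the nearest named-gene probe of the same strand, where that gene probe was detected in the same cell (circles) or not (squares). The gap is widest for overlapping probes, 68.0% against 4.79%, and the values are 12.9% and 13.1% at 1 to 5 kb.

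Sequence shared with named genes was counted by alignment, which in part finds the overlapping probes again. In all, 298 lincRNA probes (1.83%) matched a named-gene probe over at least 30 bases with at least 90% identity and no gap, 182 in the same and 116 in the opposite orientation. Where the matched gene probe in the same orientation was detected in all 8 cells, 22 of 23 lincRNA probes were too, and where it was detected in 0 cells, 83 of 92 lincRNA probes were in 0. However, 134 of the 182 overlap the gene probe at the same position and are no separate observation. For the other 48 the counts were 14 of 14 and 13 of 16. In the opposite orientation, 75 of the 116 do not overlap the gene probe, and of the 29 of these whose gene probe was detected in all 8 cells, 22 were detected in all 8. A match within 60 bases of probe says nothing of the rest of either transcript, and genes without a similar probe were not searched. In addition, 170 lincRNA probes lie whole within the promoter window (250 bases before to 50 after the start) of 105 RefSeq genes of build GRCm38.p6. Of the 84 on the strand of the gene, 10.7% were detected in all 8 cells, and of the 90 on the opposite strand 21.1%, with 15.1 and 16.8 C per probe on average.

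The brightest members were read with this in mind. Of the 10 loci with the highest mean signal among probes detected in all 8 cells, 9 are described, and 3 of these hold a probe that matches that of Rps16, a ribosomal protein, or of Mif in the same orientation. A_30_P01026458 (chr11:22686751-22686810, reverse strand) shares 53 bases with the probe of Rps16, with 1 mismatch. Its signals were 106774.7, 49736.1, 61079.7 and 36622.2 in the WT cells and 61811.6, 28353.4, 51324.9 and 86186.5 in the KO cells. The Rps16 probe itself gave 133271.0, 65080.0, 70820.0 and 46710.7 in WT and 79815.9, 39019.1, 71539.0 and 112679.7 in KO, so that both were highest in WT cell 1 and lowest in KO cell 2. A_30_P01021243 shares 50 bases, with 3 mismatches, with Mif, a secreted cytokine, and ranged from 28775.4 to 128271.4. A_30_P01020937 shares 52 bases, with 3 mismatches, with Rps16 and ranged from 8700.5 to 35639.4.

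The other 6 of the 9 have no such match among the named-gene probes. A_30_P01022075 (chr17:17482318-17482377, reverse strand) lies by the design's positions 183 bases from a probe of Oaz1, ornithine decarboxylase antizyme, and ranged from 13612.0 in KO cell 2 to 91216.3 in WT cell 1. A_30_P01032016 (chr6:83406215-83406274, forward strand) and A_30_P01031264 (chr12:73862326-73862385, reverse strand) hold 34 and 36 C. Their nearest named-gene probes, 7958 and 1485 bases away, were detected in 0 cells. A_30_P01032016 gave 62048.2, 26698.2, 23663.2 and 24388.6 in WT and 33079.3, 38924.4, 38460.4 and 35307.5 in KO. A_30_P01022768 (chr1:182688000-182688059, forward strand, 20 C) gave 13305.2, 18305.2, 11199.6 and 15042.3 in WT and 23047.7, 28677.0, 38762.3 and 30683.3 in KO, with every KO cell above every WT cell. The last of the 9, A_30_P01018056 on chromosome 2 and A_30_P01018617 on chromosome 6, hold 19 and 21 C and ranged from 15786.6 to 136895.8 and from 10209.5 to 43350.4.

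Both strands were detected in all 8 cells at bright loci too. Besides the Rps16-like A_30_P01026458, its interval on chromosome 11 held the forward-strand probe A_30_P01025682, which starts 467 bases away and ranged from 7253.1 in KO cell 2 to 30005.0 in WT cell 1. The interval of A_30_P01020937 on chromosome 2 held A_30_P01030916 on the forward strand, with 6097.1 in WT cell 4 to 20702.4 in WT cell 1. At chr7:108209996-108216032 the probes A_30_P01031375 (forward) and A_30_P01030669 (reverse) both peaked in KO cell 3, at 21889.4 and 38107.7, and were lowest in KO cell 2, at 2304.1 and 3251.8.

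Among the 57 probes with a transcript name, 7 were detected in all 8 cells, 17 in 1 to 7 and 33 in none. All 5 probes of H19, an imprinted transcript of the embryonic mesoderm expressed from the maternal allele, were detected in all 8 cells. A_30_P01021588 gave 22897.3, 37657.3, 22896.5 and 4883.0 in WT and 4326.7, 5187.8, 88343.3 and 11367.9 in KO. The KO values spanned the WT values on either side, and the KO minus WT difference over the 5 probes was -0.52 to -1.01 on the log2 scale, within the SD of 1.89 to 2.21 between the KO cells. TUG1, a nuclear lincRNA first studied in the retina, was detected with all 5 probes in WT cells 3 and 4 and KO cells 1, 3 and 4, and with none in the other 3 cells. A_30_P01033104 gave 106.5 and 488.0 in WT cells 3 and 4, 3693.0, 213.7 and 429.4 in KO cells 1, 3 and 4, and 2.24 to 3.41 in the cells where it was not detected.

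NEAT1, the scaffold RNA of paraspeckles, was bright in KO cell 1, where its 5 probes gave 336.9 to 730.3. In KO cell 4, 4 of them were detected at 20.6 to 26.6, and in the other 6 cells none was. NEAT2, another name of Malat1, a nuclear RNA of splicing speckles, was detected with all 3 probes in KO cells 2 and 3 only. A_30_P01031072 gave 6095.7 and 6394.3 there and 1.01 to 3.00 in the other 6 cells. The lincRNA probes of NEAT1 and NEAT2 were thus detected in different KO cells. The probe listed as Malat1 among the named genes has the same position as a NEAT2 probe and is no separate check. It gave 3697.8 and 4206.8 in KO cells 2 and 3 and at most 3.28 elsewhere. The named-gene probe of Neat1 was detected in 3 cells, and besides 723.7 in KO cell 1 and 39.4 in KO cell 4 it gave 30.1 in WT cell 4.

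The 5 probes that the design names KCNQ1ot1 are placed on the forward strand, whereas its named-gene probe of Kcnq1ot1, the antisense transcript of the imprinted Kcnq1 domain, is on the reverse strand and was detected in 0 cells. By these positions the forward-strand signal does not read the antisense transcript. A_30_P01026203 gave 400.1, 127.4, 93.2 and 59.8 in WT and 1095.7, 237.7, 318.9 and 385.6 in KO, while the other 4 forward-strand probes were detected in 0 cells. Of the 5 probes of NRON, a repressor of nuclear trafficking of NFAT, A_30_P01025636 was detected in all 8 cells between 62.9 and 141.7, A_30_P01029993 in 7 and the others in none. Of XIST, TSIX, HOTAIR and lincP21, each with 5 probes, none was detected in any cell. PINC was detected with 1 probe in WT cell 4 only, at 8.01, and BRN1-A with 2 of 4 probes in at most 2 cells, at signals of up to 14.8.

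**Figure D4:**
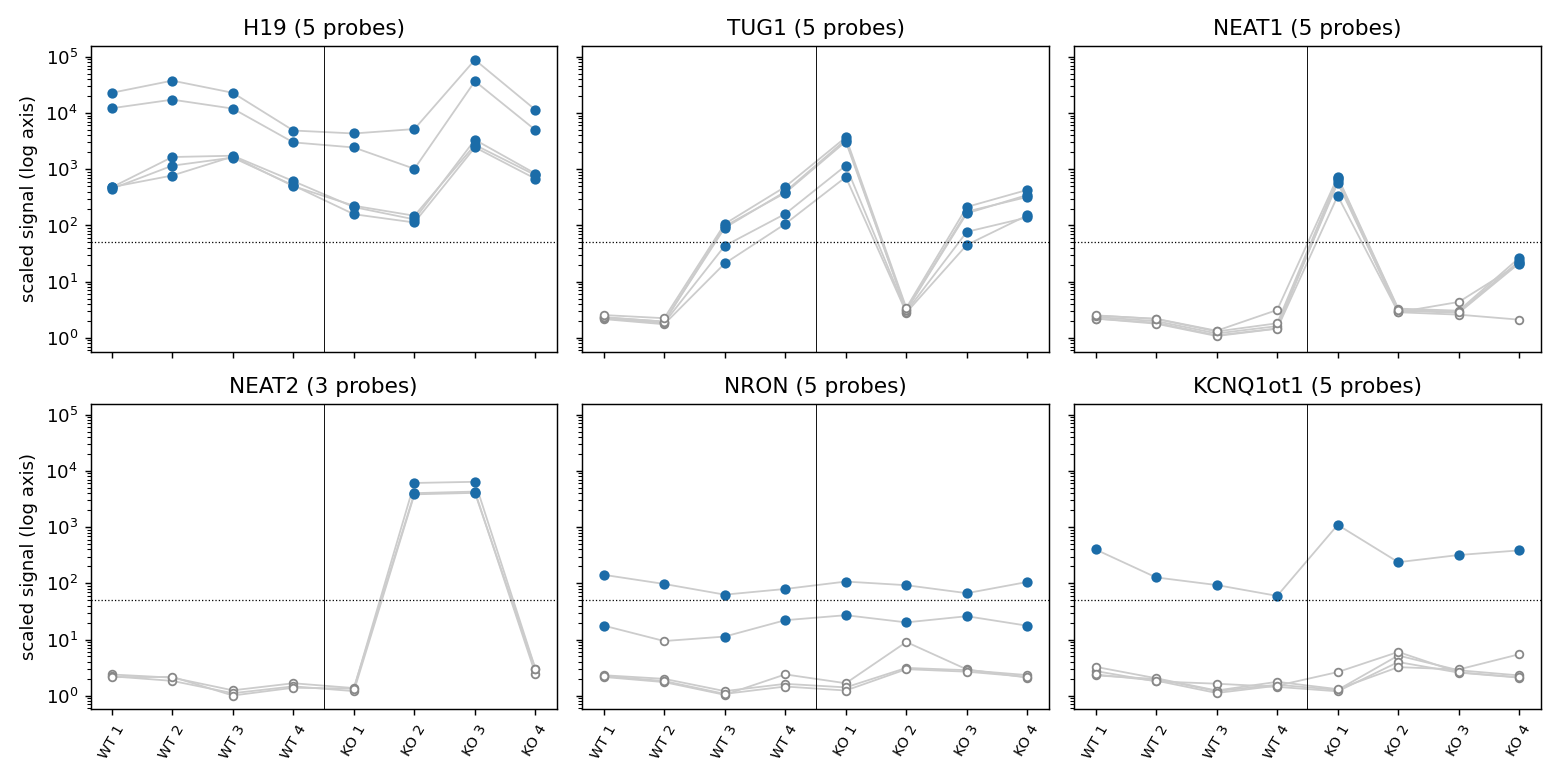
Scaled signal (log axis) in each cell of the probes of 6 named lincRNA transcripts, with 1 grey line per probe. Filled points mark cells where the probe was detected, open points cells where it was not, and the dotted line a signal of 50; all 5 H19 probes were detected in 8 cells, TUG1 in 5 cells, and NEAT2 in KO cells 2 and 3 only.

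Noncoding RNA genes that the array lists by gene symbol give the context. Of 37 genes on a list chosen for this comparison, 29 had a named-gene probe. Taking the brightest probe of each, 5 were detected in all 8 cells, 16 in 1 to 7 and 8 in none, with 9 to 14 detected per WT cell and 10 to 14 per KO cell. Meg3, a maternally expressed imprinted RNA, gave 12512.2, 1536.8, 3568.6 and 6359.6 in WT and 47595.2, 17562.5, 29288.3 and 7861.3 in KO, so that 3 of 4 KO cells lay above every WT cell. Gas5, a host gene of small nucleolar RNAs, gave 522.8 to 3456.4 in the 4 WT cells, 5105.0 and 1556.2 in KO cells 2 and 4, and was not detected in KO cells 1 and 3. The named-gene probe of Tug1 was detected in 5 cells, but it shares 32 bases with the TUG1 probe A_30_P01017489 and is no separate check.

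KO was compared with WT over the 1733 lincRNA probes that every cell of at least 1 genotype detected, as the difference of mean log2 signals with signals under 50 set to 50. With 1 sample of cells a genotype, the rule is one of size, at least 5-fold. In KO, 19 lincRNA probes (1.10%) were at least 5-fold lower and 8 (0.462%) at least 5-fold higher. Over all 7467 probes that met the same rule of detection, the shares were 6.88% lower and 1.75% higher, and among the 4096 named-gene probes they were 10.4% lower and 2.59% higher. The lincRNA share was thus below that of all probes in both directions. LincRNA probes were also dimmer: of those detected in all 8 cells, 65.9% had a mean above 50, against 80.8% of named-gene probes, and the part of signal level in the shares past 5-fold was not tested. With quantile normalization the lincRNA counts became 11 lower and 21 higher (1.85% together). Among named-gene probes they were then 355 lower and 141 higher (12.1% together). The balance of directions among lincRNA probes thus depended on the scaling. The median difference was 0.10 over the lincRNA probes and 0.02 over all probes, and 90% of the lincRNA probes lay between -1.08 and 1.18. The 19 lower probes belong to 11 loci and the 8 higher to 6. Of the 19, every KO cell detected 3 and 1 to 3 KO cells the other 16. Of the 8, every WT cell detected 3 and 1 to 3 WT cells the other 5.

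**Figure D5:**
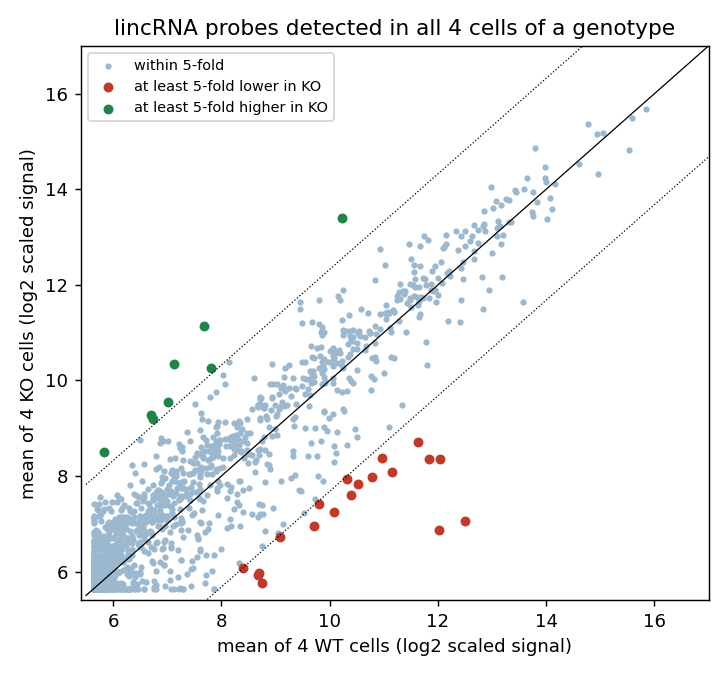
Mean log2 scaled signal of 4 KO cells against that of 4 WT cells for the 1733 lincRNA probes that every cell of at least 1 genotype detected, with signals under 50 set to 50. The solid line marks equal means, the dotted lines a 5-fold difference; 19 probes lie at least 5-fold lower in KO (red) and 8 at least 5-fold higher (green).

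The lowest in KO was chr14:44292637-44293014 on the forward strand, with 3 probes. A_30_P01023804 gave 6182.8, 8703.0, 7852.2 and 2645.3 in WT and 1.35, 6.15, 2043.2 and 61.8 in KO, a difference of -5.44 on the log2 scale (SD 0.78 in WT and 2.63 in KO, n = 4 each). Every WT cell lay above every KO cell, and KO cell 3 came close to WT cell 4. A_30_P01032678, 65 bases upstream, differed by -5.15 and shares 55 bases without mismatch with the probe of Rbmxl1, which encodes an RNA-binding protein. The Rbmxl1 probe gave 4701.9, 6233.7, 5394.5 and 1908.7 in WT and 1.28, 3.18, 1606.8 and 45.6 in KO, a difference of -5.13, and so followed the lincRNA probe cell by cell. Which of both transcripts gave the signal was not tested. On the opposite strand of the overlapping interval chr14:44284425-44300475, A_30_P01018452 was the only lincRNA probe detected in all 4 WT and 0 of 4 KO cells, with 1095.7, 51.8, 188.4 and 276.4 in WT and 1.27 to 5.63 in KO, at least 26.8-fold lower in KO against the lowest signal well above background.

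At chr1:193815525-193825775, 5 probes on both strands were at least 5-fold lower. On the forward strand A_30_P01028956 gave 5559.0, 4822.5, 3600.3 and 3220.0 in WT and 2.53, 3.31, 707.1 and 6590.9 in KO, a difference of -3.68. On the reverse strand A_30_P01022104 gave 3209.9, 2082.9, 1883.9 and 2163.5 in WT and 1.31, 26.1, 624.7 and 3374.6 in KO, a difference of -3.08. For both, KO cells 1 and 2 were low while KO cell 4 lay above every WT cell, so the KO cells did not share a low level. A_30_P01027290 at this locus shares 48 bases in the opposite orientation, with 2 mismatches, with the probe of Cks1brt, a relative of a subunit of cyclin-dependent kinases, whose signals were 230.1 to 433.7 in WT and 1.20, 2.82, 84.2 and 712.8 in KO. The nearest named-gene probe in position is that of Traf5, 4.2 to 4.6 kb away and detected in 1 cell.

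Other loci lower in KO were chr14:22267795-22319045 (3 forward probes without positions, -2.39 to -2.93), chr6:142915873-142938323 (2 forward probes, -2.36 and -2.85) and 6 loci with 1 probe each. Of the chromosome 6 probes, A_30_P01033003 shares 45 bases in the opposite orientation, with 3 mismatches, with the probe of Hmgb1, a chromatin protein. It gave 382.5, 1123.0, 1571.0 and 2085.6 in WT and 1.26, 218.7, 174.3 and 273.4 in KO, and the Hmgb1 probe differed by -2.34. A_30_P01025197 (chr4:138686875-138686934, forward strand, 24 C) gave 10051.7, 3743.1, 1040.0 and 4609.1 in WT and 12.1, 1440.9, 8.39 and 3199.0 in KO, so 2 of 4 KO cells kept it within the WT range. Among probes above 50 in all 8 cells, the largest fall was that of A_30_P01020661 (chr17:64051789-64051848, forward strand), with 4646.7, 1412.4, 1201.6 and 2031.4 in WT and 50.3, 352.3, 2030.6 and 338.5 in KO, a difference of -2.59. The next were A_30_P01031896 on chromosome 10 (-2.21), A_30_P01025019 on chromosome 19 (-1.80), A_30_P01027755 on chromosome 8 (-1.67) and A_30_P01030664 on chromosome 5 (-1.63), each with overlapping values in both genotypes.

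Higher in KO was chr5:35975265-35982561 on the reverse strand, with 3 adjoining probes. A_30_P01029279 gave 166.2, 891.0, 236.8 and 1.51 in WT and 3151.8, 1190.8, 2655.5 and 2582.8 in KO, a difference of 3.46 (SD 1.71 in WT and 0.63 in KO, n = 4 each). A_30_P01026124 differed by 3.22 and A_30_P01032382 by 3.17. For the first 2 probes every KO cell lay above every WT cell, and for A_30_P01032382 the KO value of 5808.2 in cell 2 lay below the WT value of 8684.0 in cell 2. All 3 probes were undetected in WT cell 4, and without it the difference of A_30_P01032382 was 1.64. The nearest named-gene probe, that of Acox3, a peroxisomal acyl-CoA oxidase, lies 20.6 to 20.7 kb away.

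The other 5 probes higher in KO were single probes of their loci. A_30_P01025802 (chr9:27153429-27153488, forward strand) gave 34.3 to 67.3 in WT and 5372.4, 150.3, 156.4 and 139.9 in KO, and its difference of 2.69 was 1.39 without KO cell 1. A_30_P01023029 and A_30_P01023888 on chromosome 17 overlap each other by 47 bases, belong to nested loci and lie 162 and 149 bases from a probe of Rn45s, so they count as 1 site. A_30_P01023029 gave 12.6, 120.1, 388.2 and 9.59 in WT and 2809.1, 545.0, 20.2 and 1903.7 in KO. A_30_P01032638 (chr4:140912898-140912957, forward strand) gave 100.1, 335.9, 110.3 and 676.0 in WT and 703.6, 895.0, 1192.4 and 3089.3 in KO, a difference of 2.46, with every KO cell above every WT cell. A_30_P01032592 (chr2:59237815-59237874, forward strand) gave 41.4, 2.05, 314.6 and 360.7 in WT and 457.2, 983.5, 371.8 and 1850.2 in KO, likewise without overlap. The next among probes above 50 in all 8 cells were A_30_P01022621 on chromosome 6, A_30_P01030384 on chromosome 8 (2.09), A_30_P01031536 on chromosome 10 (1.90) and A_30_P01030722 on chromosome 3 (1.89). For these 4 every KO cell lay above every WT cell. The probes past 5-fold and those with the largest differences were picked by size, which favours such separation. The share of all probes without overlap between the genotypes is not given here. A_30_P01022621 gave 380.2 to 886.4 in WT and 1545.0, 5182.0, 9400.8 and 1399.1 in KO. It shares 36 bases in the opposite orientation with the probe of Tpi1, a glycolytic enzyme, which differed by 0.18.

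Detection in all cells of a single genotype was rare. Of 7467 probes of all kinds, 59 (0.790%) were detected in 4 WT and 0 KO cells and 11 (0.147%) in 4 KO and 0 WT cells. LincRNA probes made up 1 of the 59 and 5 of the 11, against 53 and 4 for named-gene probes. These are 0.0577% and 0.289% of 1733 lincRNA probes, and 1.29% and 0.0977% of 4096 named-gene probes. Of the 5, A_30_P01025884 (chr8:26870435-26870494, forward strand, 7701 bases from a probe of Bag4 on the opposite strand) gave 137.1, 81.8, 186.4 and 149.4 in KO and 1.03 to 2.15 in WT. Against the lowest signal well above background it was at least 26.3-fold higher in KO. With signals under 50 set to 50 its difference was 1.41 on the log2 scale, short of the 5-fold rule. The other 4, A_30_P01020117, A_30_P01033108, A_30_P01020218 and A_30_P01031907, stayed under 50 in every cell. Of these, A_30_P01020117 gave at most 22.5 in KO and at most 8.22 in WT. It lies 627 bases from a probe of Snhg3, a host gene of small nucleolar RNAs, which is on the opposite strand.

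Around 9 of the cardiac genes on a list of 34, 112 lincRNA probes lay within 100 kb. Of these, 10 (8.93%) were detected in all 8 cells, 28 in 1 to 7 and 74 (66.1%) in none, close to the 8.07% and 65.0% of all lincRNA probes. The brightest was A_30_P01030114 (chr17:26997680-26997739, reverse strand, 18 C), 22059 bases from the probe of Nkx2-5, a homeobox factor of cardiac progenitors. It gave 597.4, 232.7, 197.8 and 239.8 in WT and 389.7, 535.3, 441.5 and 368.7 in KO. Also near Nkx2-5, A_30_P01026815 ranged from 90.7 to 763.5. Near Myh7, a myosin heavy chain, A_30_P01019517 ranged from 103.9 to 1212.4. Near Irx4, a ventricular homeobox factor, A_30_P01024724 ranged from 122.8 to 470.8. Near Mef2c, a myogenic transcription factor, A_30_P01032761 ranged from 99.6 to 460.3. Of these 5, none reached 2-fold between the genotype means, and the values overlapped. The sixth, A_30_P01021685 (chr5:120279227-120279286, reverse strand), lies 54860 bases from the probe of Tbx5, a T-box factor of the heart, and was the only one of the 112 past the 5-fold rule. It gave 76.0, 4064.6, 2224.1 and 14.7 in WT and 22.7 to 68.4 in KO, a difference of -2.99 that rested on WT cells 2 and 3.

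The brightest probes detected in exactly 1 cell show the upper end of that class. A_30_P01027042 (chr11:120049371-120049430, reverse strand) gave 6648.6 in KO cell 4 and 1.28 to 4.02 elsewhere. It lies 433 bases from the probe of 2810410L24Rik, which was also detected in 1 cell. A_30_P01030677 (chr4:135915135-135915194, forward strand) gave 5342.8 in WT cell 2. A_30_P01020975 and A_30_P01017714 on chromosome 8, which overlap each other by 51 bases and belong to nested loci, gave 4828.6 and 4618.8 in WT cell 3 and at most 10.6 in the other cells. Across the members, 644 probes share at least 25 bases with a probe of another locus on the same strand, so such repeats of a site occur elsewhere in the counts.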

How the data were processed

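Agilent single-colour arrays of 8 single cells, 4 WT and 4 KO, were used. According to the authors' methods, cells were chosen by PCR for marker genes, cDNA was primed with oligo-dT, amplified by PCR and by transcription from a T3 promoter, and labelled with Cy3. The deposited spot intensities were background-subtracted processed signals of Agilent Feature Extraction 12.0.2.2, per the file headers, with positions in mm9. The authors set signals under 50 to 50 and scaled each chip on its 50th percentile and each gene on its median.

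Here each array was scaled on the 50th percentile of 5301 probes detected on all arrays, with log2 shifts of -0.76 to 0.68. The floor of 50 was applied to fold changes and not to printed signals. Outlier-marked spots, 146 to 220 on an array, were excluded, and 0 spots were saturated. Spots of a probe were averaged. A locus was the interval and strand in the design. Detection was the scanner software's mark of a signal well above background. Differences between genotypes were means of log2 signals, KO minus WT, over probes that all 4 cells of at least 1 genotype detected. No test across genotypes was made, because the labels name no embryo, and the arrays' number limits the precision. Shares carry exact 95% Clopper-Pearson intervals. "At least" folds compare the bright genotype with a limit for the dim one: per array, the dimmest signal that counted as detected, or the probe's own where higher. Probes were aligned to each other with blastn 2.17.0 (at least 30 bases and 90% identity).

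Probes named were, by rule, the 10 brightest loci detected in all 8 cells (1 of them not reported here), the 5 largest differences each way among probes above 50 in all 8 cells, up to 5 probes detected in 1 genotype only, the 3 loci with the most detected probes, the 3 brightest loci with both strands, up to 6 probes within 100 kb of a cardiac gene and the 4 brightest probes detected in 1 cell. Probes with a transcript name, those past 5-fold, the strand pairs and the probes shown for shared sequence were added after their values were seen. The comparisons by base content and by motif, CCTCCC included, were not among the planned results. Their intervals make no allowance for the choice of motif. Members and lists were chosen with earlier results of these data known. Alternatives covered detection, scaling, background, floor, fold, filters, distance and each cell left out. Python 3.11.15 with numpy 2.4.6, pandas 2.3.3, scipy 1.17.1 and matplotlib 3.10.9, and limma 3.58.1 for normexp, were used, and the scripts were tested on simulated data.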

Additional observations from a re-analysis of the deposited data

Results flagged for a closer look

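Among 154 groups of 4 cells of a genotype (nearly all of them the signals of a single probe, with values under 50 set to 50), there were 25 cases of a cell whose log2 signal stood far from the other 3 of its genotype. Chance alone gives about 1 in 20 such groups, and where 3 cells lie at the floor any detected cell stands apart. No explanation was examined.

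The brightest probes gave 3 of these. A_30_P01032016 (15.92) and A_30_P01018617 (15.40) stood highest in WT cell 1, and A_30_P01031264 (14.08) lowest in KO cell 1. All 5 NEAT1 probes stood highest in KO cell 1, at 9.16 for A_30_P01020135, 9.31 for A_30_P01021631, 8.40 for A_30_P01023251, 9.51 for A_30_P01025798 and 9.43 for A_30_P01029720. Of the TUG1 probes, A_30_P01017489 (6.74) and A_30_P01020952 (7.33) did so in WT cell 4.

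Probes detected in exactly 1 cell stood apart there by their choice: A_30_P01027042 (12.70) in KO cell 4, A_30_P01030677 (12.38) in WT cell 2, and A_30_P01020975 (12.24) and A_30_P01017714 (12.17) in WT cell 3. At the chromosome 14 locus lowest in KO, A_30_P01023804 (11.00), A_30_P01032678 (10.58) and A_30_P01024311 (7.33) stood highest among KO cells in KO cell 3, and A_30_P01024311 (7.11) lowest among WT cells in WT cell 4.

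Among the other probes past 5-fold, A_30_P01022072 (10.91) stood highest in KO cell 4, A_30_P01025802 (12.39) and A_30_P01027222 (6.81) in KO cell 1, and A_30_P01029796 (6.98) and A_30_P01021685 (6.10) in KO cell 2. A_30_P01026124 (9.53) was lowest in KO cell 2. Outside the 5-fold rule, A_30_P01022621 (8.57) was lowest in WT cell 4.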

How the results depend on the processing

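No paired analysis was possible because the replicate numbers only name cells, no label ties a WT to a KO cell, and no test was made. With the scanner software's laxer mark (positive and significant) as detection, the mean lincRNA share was 40.0%, the gap to named genes -1.54 percentage points, 2692 probes were detected in all 8 cells and 3105 in 0. With a signal above 50 as detection the share was 7.63%, 597 probes were detected in all 8 cells, and the KO minus WT difference turned to 0.326 percentage points. With the dimmest probe per gene the gap was -1.45. With normexp and quantile normalization the median level difference was -1.31. Within 2, 10 and 50 kb of a gene probe the difference by gene detection was 22.2, 8.36 and 4.83 percentage points. These alternatives were chosen after seeing the data: neighbouring probes with at most 14 C differed by 23.5 percentage points, the CCTCCC difference was 59.4 with the laxer mark and 35.2 above 50, and keeping outlier spots left the CCTCCC difference at 53.1, the gap to named genes at -5.46 and the count in all 8 cells at 1312.

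Counts past 5-fold depended most on the settings. Lower in KO were 70 probes with no floor, 3 among probes detected in all 8 cells, 96 at 2-fold, 4 at 10-fold, 34 with medians, 29 when scaled on all probes, 11 with quantile normalization and 8 with normexp added. Higher in KO were 31 with no floor, 3 among probes detected in all 8 cells, 16 with no filter, 136 at 2-fold, 1 at 10-fold, 4 when scaled on all probes, 21 with quantile normalization and 13 with normexp added. With both directions together, the lincRNA share past the rule was below the named-gene share in every setting. At 2-fold it was 13.4% of 1733 lincRNA probes, against 35.5% of 4096 named-gene probes. Among probes detected in all 8 cells it was 0.457% of 1312, against 4.21% of 2660. The part of signal level in these shares was not tested. Leaving out each cell gave 16 to 30 lower, with 29 without WT cell 3 and 30 without KO cell 4. It gave 5 to 20 higher, with 5 without WT cell 1, 14 without WT cell 2, 13 without KO cell 1, 20 without KO cell 2 and 17 without KO cell 4. The lincRNA minus named-gene gap stayed between -5.85 and -4.88, and KO minus WT between -2.88 and -0.39. The KO minus WT difference was also followed for the 35 probes named because they were past 5-fold or among the largest differences. Of 490 alternative values, 479 moved by less than the spread between cells, 11 by more, and 0 changed sign. As these probes were picked by that difference, a kept sign was favoured by the choice and says nothing of other probes. The cause of the changes with the settings was not tested.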
